A study of Mus musculus with 22 samples.

Results

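The genes described here are 10 genes grouped as a mast cell program (*Cpa3*, *Ms4a2*, *Hdc*, *Fcer1g*, *Fcer1a*, *Tespa1*, *Gpr65*, *Cma1*, *Mcpt8*, and *Tpsb2*) out of 21951 protein-coding mouse genes. Not all are specific to mast cells, as described below for *Tespa1*, *Gpr65*, and *Mcpt8*. They were chosen from known mast cell and immune genes with the presence and length of their H3K4me3 and H3K27ac peaks in these same libraries already known, so those values are given as a description, without a test. Each gene was followed over its body plus 20 kb on each side, and no pair of these windows overlapped. The libraries hold chromatin data only, so whether RNA from these genes fell was not measured here. The study itself sequenced RNA over these hours in other libraries, which were not used here, and counts *Ms4a2* and *Gata2* among its repressed promoters.

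ChIP-seq of both histone marks and of CTCF was performed in G1E-ER4 (G1ER) cells, a cultured mouse erythroid progenitor line that lacks endogenous *Gata1* and carries GATA1 fused to the ligand-binding domain of the estrogen receptor (GATA1-ER). All groups shared this genotype and a medium with stem cell factor and erythropoietin, and they differed in the hours of β-estradiol, which activates GATA1-ER: none (0 h), 2, 6, 12, or 24 h. There were 2 peak lists (replicates) per time for each histone mark, 20 in all, and 1 list each at 0 and 24 h for CTCF, out of 22 libraries. The line is a single engineered subclone. The study calls its ChIP-seq replicates independent experiments, so their spread is that between experiments on this subclone.

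Mast cells store histamine and proteases in granules and release them when IgE bound to its high-affinity receptor is crosslinked by antigen. That receptor is built from an α chain that binds IgE (*Fcer1a*), a β chain that amplifies the signal (*Ms4a2*), and a γ chain that carries the signal and is shared with other Fc receptors (*Fcer1g*). GATA2 acts in mast cell and early progenitor genes, and GATA1 takes over many GATA2 sites during erythroid maturation. H3K4me3 sits mainly at the start of active genes, and H3K27ac sits at active promoters and enhancers.

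The histone lists held between 12925 and 14452 peaks (H3K4me3) and between 17247 and 18333 peaks (H3K27ac), and the CTCF lists held 33193 peaks at 0 h and 41473 at 24 h. They carry no read counts, so the depth behind each list is unknown, and no peak means only that none was called. No histone peak was longer than 9200 bp, and peaks of 8 kb or more had low scores in their own list, with a median percentile (100 being the highest score) between 10.5 and 17.3 for H3K4me3 and between 9.98 and 14.5 for H3K27ac. Of 9 erythroid markers matched, 6 (among them *Klf1*, *Epor*, *Slc4a1*, *Epb42*, and *Tfrc*) had a promoter H3K4me3 peak in all 10 lists, whereas *Tal1* had none. No T cell, B cell, or monocyte marker (4 of each) had one in any list.

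Promoter sequences are shown for *Cpa3*, *Gpr65*, and *Ms4a2*, which carried an H3K4me3 peak over the transcription start site (TSS) in both lists at 0 h and lacked it in at least 1 list at 24 h. They are the 250 bases before the RefSeq start (GRCm38.p6), which lie at chr3:20242182-20242431 on the minus strand for *Cpa3*, chr12:98268385-98268634 on the plus strand for *Gpr65*, and chr19:11623720-11623969 on the minus strand for *Ms4a2*. Capitals mark GATA motifs, searched on both strands as AGATAA and AGATAG and, with T in place of the first A, TGATAA and TGATAG.
Cpa3 promoter: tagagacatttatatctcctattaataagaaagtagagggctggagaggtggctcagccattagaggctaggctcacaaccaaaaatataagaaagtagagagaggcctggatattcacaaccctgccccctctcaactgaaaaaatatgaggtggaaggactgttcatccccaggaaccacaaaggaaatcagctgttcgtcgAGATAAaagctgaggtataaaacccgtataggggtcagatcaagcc
Gpr65 promoter: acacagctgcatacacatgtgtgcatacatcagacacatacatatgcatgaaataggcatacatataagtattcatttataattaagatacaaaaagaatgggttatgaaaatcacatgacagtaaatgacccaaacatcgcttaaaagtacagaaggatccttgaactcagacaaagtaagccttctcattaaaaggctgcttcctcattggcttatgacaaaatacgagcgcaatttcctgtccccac
Ms4a2 promoter: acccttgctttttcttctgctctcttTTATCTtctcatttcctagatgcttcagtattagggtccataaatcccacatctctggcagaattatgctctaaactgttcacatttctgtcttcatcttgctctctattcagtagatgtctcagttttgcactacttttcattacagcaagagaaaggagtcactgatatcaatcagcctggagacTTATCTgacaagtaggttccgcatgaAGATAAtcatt

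The promoter of *Cpa3* held 1 GATA motif, AGATAA at position -46 from the start, and that of *Gpr65* held none. The promoter of *Ms4a2* held 3, at positions -224, -37, and -11, the first pair on the opposite strand. *Hdc* had TGATAG at -221, *Fcer1a* AGATAA at -92, and *Cma1* AGATAG at -79, the last pair on the opposite strand, while *Fcer1g* and *Mcpt8* had none. In the same window of 250 bases before to 50 after the start, 29.8% of 32851 promoters held at least 1 such motif and 7.77% held 2 or more. The E-box CANNTG, present in 72.3% of all promoters, occurred 2 times at *Cpa3*, 5 times at *Gpr65*, and not at *Ms4a2*. Of the 10 members, 8 had an entry, and *Tespa1* and *Tpsb2* did not. These matches describe letters only and are no evidence of binding.

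Of the 10 genes, 5 carried an H3K4me3 peak over their own TSS in at least 1 list (*Cpa3*, *Ms4a2*, *Hdc*, *Tespa1*, and *Gpr65*), and 6 carried H3K27ac there (these 5 and *Fcer1a*). An H3K4me3 peak lay within 2 kb of the TSS in both lists at 0 h at 4 genes, and at 1 of them, *Cpa3*, neither list at 24 h had one. Across all genes 54 of 9817, or 0.55%, lost the mark in this way. For H3K27ac the same rule found 3 genes at 0 h (*Ms4a2*, *Tespa1*, and *Gpr65*) and no loss, beside 144 of 9073 genes, or 1.59%. Single lists at these times changed both counts. Without replicate 1 at 24 h the H3K4me3 losses were 2, *Cpa3* and *Gpr65*, without replicate 2 they were *Cpa3* and *Ms4a2*, and with only peaks in the higher-scoring part of the lists (at least the median score of all peaks of the mark) there was none, since no member then had a promoter H3K4me3 peak at 0 h. Without replicate 1 at 0 h, 2 genes lost H3K27ac, *Fcer1a* and *Tpsb2*, and without replicate 1 at 24 h 1 did, *Ms4a2*. At all 4 H3K4me3 promoters the peak region over the TSS was shorter in both lists at 24 h than in both at 0 h, as it was at 22.7% of 9512 genes with a peak there in both lists at 0 h. All 3 H3K27ac promoters were shorter too, beside 14.2% of 8802 genes. These members were chosen with the same lists in view, so nothing is read from their shares.

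**Figure D1:**
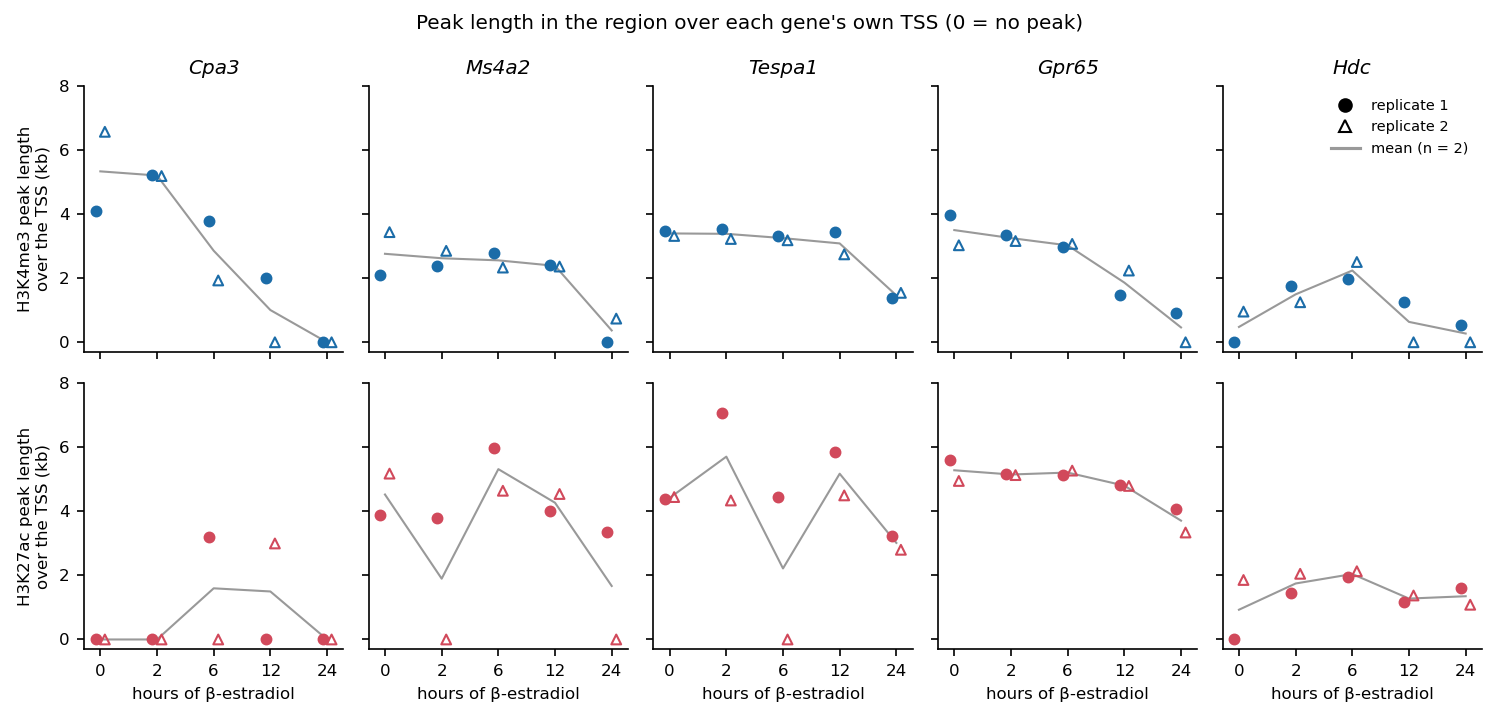
Length of the called peaks in the region over each gene's own TSS (y axis, kb, 0 where no peak was called) against hours of β-estradiol (x axis, time points evenly spaced), for H3K4me3 (top) and H3K27ac (bottom). Circles and triangles are replicates 1 and 2 and the line is their mean (n = 2); H3K4me3 was last seen at *Cpa3* at 12 h, while H3K27ac at *Gpr65* remained between 3339 and 5616 bp in all 10 lists.

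*Cpa3* (chromosome 3, 20215620 to 20242181, minus strand, GRCm38) encodes carboxypeptidase A3, a metalloprotease of the mast cell granule. Its H3K4me3 peaks over the TSS were 4101 and 6570 bp long at 0 h, 5223 and 5189 bp after 2 h, and 3787 and 1930 bp at 6 h. Only replicate 1 had a peak at 12 h, of 2013 bp, and at 24 h neither list had one. H3K4me3 thus ran from the TSS into the gene at 0 h (5335.5 ± 1745.8 bp, SD, n = 2) and was shorter than in either 0 h list from 6 h on. H3K27ac was hardly called at this promoter. It appeared only in replicate 1 at 6 h (3194 bp) and replicate 2 at 12 h (2997 bp), at percentiles 6.01 and 0.358 of the scores in those lists.

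Other sites of the *Cpa3* window also shortened. An H3K27ac region inside the gene, 19.2 kb downstream of the TSS over coding exons, measured 2236 and 2970 bp at 0 h and was last called at 12 h, in replicate 1 (1767 bp). An intergenic site 43.4 kb downstream carried H3K4me3 and H3K27ac in all 10 lists of each mark, with a CTCF peak at both times. H3K4me3 there went from 2154 and 2247 bp (0 h) to 1146 and 1202 bp (24 h), and the groups did not overlap. H3K27ac there went from 3341 and 3298 bp to 1395 and 1218 bp. The CTCF peak at this site stood at percentile 96.9 of its list at 0 h (1005 bp) and 98.6 at 24 h (980 bp). So both histone marks at this site were shorter at 24 h, and CTCF was listed at both times.

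*Ms4a2* (chromosome 19, 11615523 to 11623719, minus strand), the β chain of the IgE receptor, kept H3K4me3 over its TSS until 12 h. The peaks were 2086 and 3438 bp long at 0 h, 2393 and 2854 bp after 2 h, 2783 and 2332 bp after 6 h, and 2409 and 2364 bp at 12 h. In the 24 h lists, replicate 1 had none and replicate 2 had 739 bp, below every earlier list. H3K27ac over the TSS was 3873 and 5177 bp long at 0 h, 5992 and 4642 bp after 6 h, and 3996 and 4541 bp at 12 h. It was called in only 1 list at 2 h (3796 bp) and at 24 h (3340 bp), both replicate 1.

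The flanks of *Ms4a2* behaved differently from its promoter. An H3K27ac region reaching from the 3′ part of the gene downstream, 9.74 kb from the TSS, measured 4104 and 4015 bp at 0 h and 4313 and 4128 bp at 24 h, and was present in all 10 lists. Another over coding exons of *Ms4a3*, a neighbouring member of the same gene family, measured 2021 and 2098 bp at 0 h and 2140 and 2967 bp at 24 h, again in all 10 lists. Neither region was shorter at 24 h, and 3 CTCF sites lay downstream at both times.

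*Gpr65* (chromosome 12, 98268635 to 98276644, plus strand) encodes a proton-sensing receptor of immune cells. Its H3K4me3 peaks in the TSS region covered 3976 and 3028 bp at 0 h, 3345 and 3161 bp after 2 h, 2980 and 3071 bp after 6 h, 1487 and 2239 bp after 12 h, and 928 bp in replicate 1 at 24 h, with none in replicate 2. The called peaks lay inside the gene and off the TSS in 1 list at each of the last times. The 24 h peak ran from 1.75 to 2.68 kb inside the gene, and at 12 h replicate 1 had a peak from 1.39 to 2.87 kb and none at the TSS, while replicate 2 still had a peak of 1034 bp over the TSS. H3K27ac in the same TSS region stayed in all 10 lists. It measured 5616 and 4948 bp at 0 h, 5168 and 5131 bp after 2 h, 5149 and 5271 bp after 6 h, 4811 and 4793 bp after 12 h, and 4079 and 3339 bp at 24 h. Both 24 h lists were below all others, with 3709.0 ± 523.3 bp against 5282.0 ± 472.3 bp at 0 h (SD, n = 2). The 24 h H3K27ac peak of replicate 2 also lay off the TSS, from 0.533 to 3.87 kb inside the gene.

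The neighbouring promoter of *Galc*, a lysosomal enzyme gene about 10.0 kb upstream of *Gpr65*, carried H3K4me3 in all 10 lists (3862 and 3949 bp at 0 h, 3074 and 2991 bp after 24 h). Its score rank moved the other way, from percentiles 71.4 and 74.5 at 0 h to 94.2 and 95.5 at 24 h. H3K27ac at *Galc* was missing from replicate 2 at 2 h and at 12 h and was 8506 bp long in replicate 1 at 0 h, at percentile 1.63, beside 5131 bp in replicate 2, at percentile 64.6.

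*Tespa1* (chromosome 10, 130322870 to 130364111, plus strand), known from signalling in developing T cells, kept both marks at its promoter. H3K4me3 measured 3477 and 3319 bp at 0 h, 3546 and 3225 bp after 2 h, 3319 and 3184 bp after 6 h, 3428 and 2744 bp after 12 h, and 1386 and 1543 bp at 24 h. Lengths were thus alike up to 12 h and lower in both 24 h lists (1464.5 ± 111 bp against 3398.0 ± 111.7 bp at 0 h, SD, n = 2). H3K27ac over the TSS measured 4393 and 4445 bp at 0 h, 7076 and 4338 bp after 2 h, 5851 and 4497 bp after 12 h, and 3229 and 2800 bp at 24 h, and at 6 h it was called in replicate 1 only (4435 bp). An intronic H3K27ac region 13.9 kb into the gene was in all 10 lists, at 3721 and 3711 bp at 0 h and 2589 and 2029 bp at 24 h. A site 11.1 kb upstream, away from any TSS, carried a short H3K4me3 peak in all 10 lists, of 886 and 943 bp at 0 h, and the 24 h values of 1144 and 781 bp lay on either side of these.

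**Figure D2:**
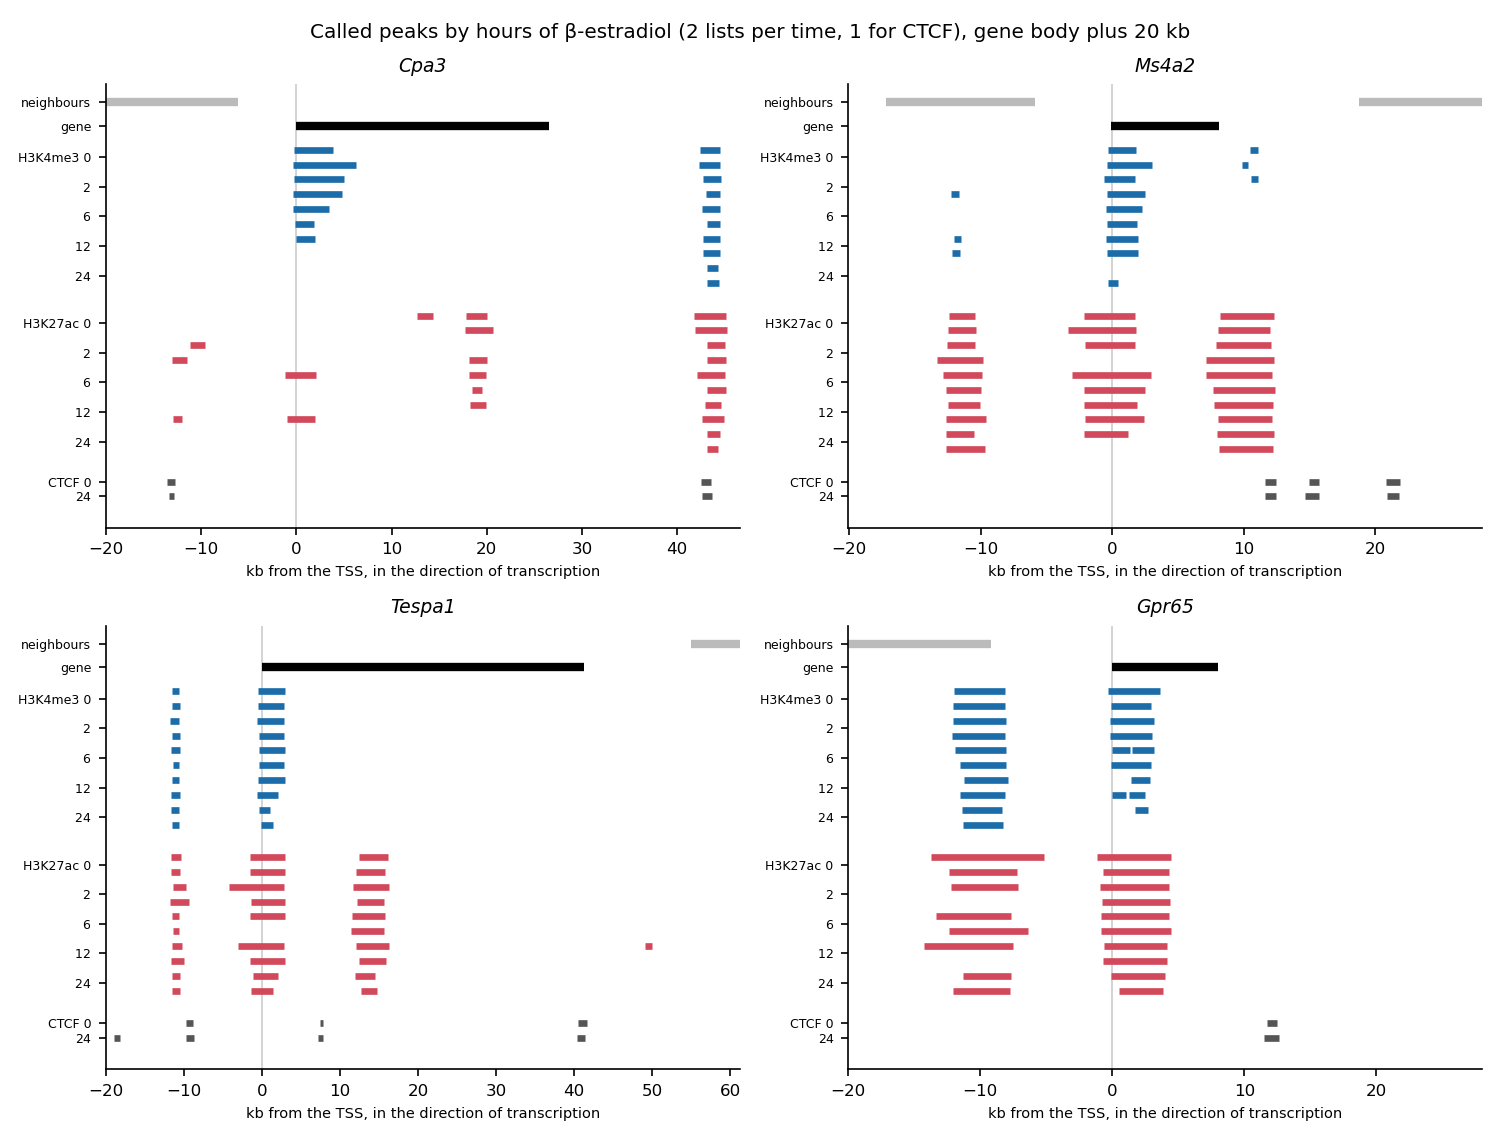
Called peaks around *Cpa3*, *Ms4a2*, *Tespa1*, and *Gpr65*: the x axis is distance from the TSS in kb in the direction of transcription, and each row is 1 list, by mark and hours of β-estradiol (H3K4me3 blue, H3K27ac red, CTCF grey), with the gene in black, its neighbours in light grey, and peaks cut at the window's edge. The *Cpa3* TSS has no H3K4me3 at 24 h, and the remaining H3K4me3 peak of *Gpr65* at 24 h starts 1.75 kb inside the gene.

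*Hdc* (chromosome 2, 126593667 to 126619299, minus strand), which encodes histidine decarboxylase, the enzyme that makes histamine, followed another course. H3K4me3 over its TSS was in 1 of 2 lists at 0 h (958 bp), in both at 2 h (1743 and 1250 bp) and 6 h (1975 and 2506 bp), and in 1 list at 12 h (1273 bp) and 24 h (547 bp). Its length was highest at 6 h, where both lists exceeded those of every other time. H3K27ac was likewise in 1 list at 0 h (1857 bp) and then in both lists at each later time, at 1445 and 2050 bp at 2 h, 1956 and 2130 bp after 6 h, 1181 and 1373 bp after 12 h, and 1616 and 1084 bp at 24 h. These peaks ranked low, with H3K4me3 between percentiles 2.73 and 20.8 and H3K27ac between 2.83 and 34.1. An H3K27ac region within *Gabpb1*, 17.3 kb upstream, was in all 10 lists, at 2219 and 1769 bp at 0 h and 2554 and 2292 bp at 24 h.

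*Fcer1a* (chromosome 1, 173221284 to 173227214, minus strand), the α chain of the IgE receptor, had no H3K4me3 peak in its window in any list. H3K27ac touched its TSS in 3 lists, replicate 2 at 0 h (1051 bp), replicate 1 at 2 h (1072 bp), and replicate 2 at 6 h (1025 bp), and in none at 12 or 24 h. An H3K27ac region centred 11.2 kb downstream of the TSS, at the olfactory receptor gene *Olfr1404*, was in all 10 lists. It measured 8373 and 8352 bp at 0 h, 5727 and 8183 bp after 2 h, 4614 and 4788 bp after 6 h, 3957 and 4133 bp after 12 h, and 3036 and 3262 bp at 24 h. Only the peaks of both 0 h lists and of replicate 2 at 2 h reached the start of *Olfr1404*, 14.8 kb downstream. Those of the other lists ended short of it, at 11.9 and 11.7 kb in the 24 h lists. In length, each list from 6 h on was below each list at 0 and 2 h, and the mean at 24 h was 37.7% of that at 0 h. The longest of these peaks scored low (percentiles 2.33 and 5.37 at 0 h) and the later, shorter ones higher (61.3 and 58.8 at 6 h, 55.7 and 50.7 at 24 h). Of the 178 H3K27ac peaks in the 10 windows, 4 were 8 kb or longer, at *Fcer1a* and *Gpr65*, and none of these 4 exceeded percentile 6.95. The part of this link between length and score in the shortening was not tested. A region 10.6 kb upstream of *Fcer1a* was also in all 10 lists, at 2108 and 1922 bp at 0 h and 1548 and 1754 bp at 24 h.

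*Fcer1g* (chromosome 1, 171229572 to 171234365, minus strand), the γ chain, had no peak of either mark over its own TSS. The peaks in its window were at promoters of other genes, such as that of *Tomm40l* (12.1 kb downstream), a neighbour with a mitochondrial product, in all 10 lists of both marks. H3K4me3 at *Tomm40l* was 2590 and 2636 bp at 0 h and 2296 and 2798 bp at 24 h, and the groups overlapped. The window values of *Fcer1g* are thus those of other genes' promoters.

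The protease genes *Cma1* (chymase; chromosome 14, 55941451 to 55944675, minus strand), *Mcpt8* (a protease known best from basophils; chromosome 14, 56082166 to 56085273, minus strand), and *Tpsb2* (a tryptase; chromosome 17, 25366305 to 25369098, plus strand) had no H3K4me3 within 2 kb of the TSS in any list. In the *Cma1* window, H3K4me3 was called 5.77 kb upstream in both 0 h lists (761 and 596 bp, percentiles 9.19 and 0.138). It was also called in replicate 1 at 2 h (657 bp), at an alternative start of *Cma2* next to that site, and not after that. An H3K27ac region 18.8 kb downstream of *Cma1*, partly outside the window, was in 1 list at 0 h (5014 bp), in none at 2 h, and in both lists at 6 h (10206 and 5137 bp), 12 h (10297 and 9569 bp), and 24 h (5327 and 4828 bp). *Tpsb2* had H3K27ac 1.75 kb upstream in replicate 2 at 0 h (1682 bp) and replicate 1 at 6 h (2514 bp), at percentiles 1.87 and 0.438. *Mcpt8* had no histone peak in its window, and a CTCF peak 13.9 kb upstream at both times (832 bp at 0 h and 1080 bp at 24 h). The authors kept uniquely mapped reads, and these proteases have close relatives in their clusters, so an empty window may also reflect reads that could not be placed, which was not tested.

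**Figure D3:**
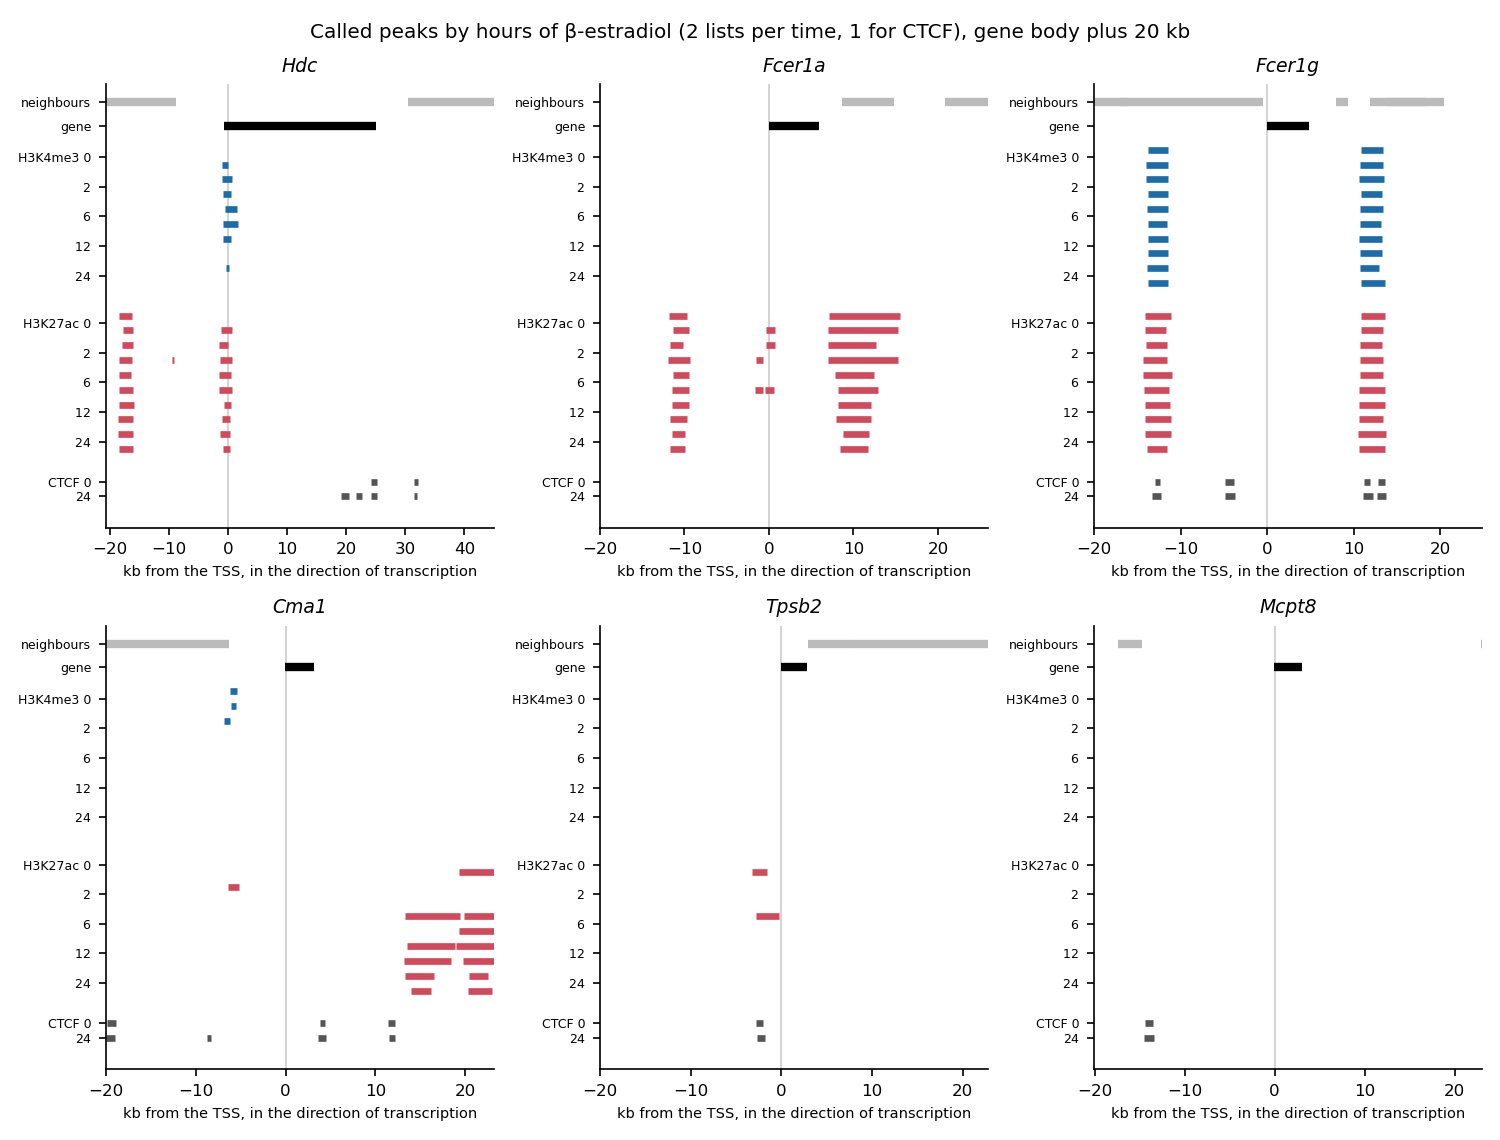
Called peaks around *Hdc*, *Fcer1a*, *Fcer1g*, *Cma1*, *Tpsb2*, and *Mcpt8*: the x axis is distance from the TSS in kb in the direction of transcription, and each row is 1 list, by mark and hours of β-estradiol, with colours and gene bars as in the map of the first 4 genes. H3K4me3 over a member's own TSS appears only at *Hdc*, and the window of *Fcer1g* has no peak over the TSS.

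All regions of the 10 windows can be counted together. There were 15 H3K4me3 regions at 7 genes, of which 6 were in all 10 lists, and 27 H3K27ac regions at 9 genes, of which 11 were in all 10 lists. Peaks over the members' own TSS ranked low among the H3K4me3 peaks of their lists. All 42 occurrences of a region over a member's own TSS in a list were below the middle of that list's scores, between percentiles 2.48 and 39.5, from 2.73 to 39.5 at 0 h and from 2.48 to 13.5 at 24 h. For H3K27ac, 34 of 41 were below the middle, and the others were 6 at *Gpr65* (of 10 there) and 1 at *Ms4a2*. Peaks of 2 to 4 kb, a length common for H3K4me3 at these promoters, had median percentiles between 72.0 and 74.1 in the H3K4me3 lists and between 69.8 and 71.0 in the H3K27ac lists. Other lengths ranked lower. Medians for 4 to 6 kb, the length of most H3K27ac peaks at *Gpr65*, were 63.3 to 64.7 in the H3K27ac lists. The own-TSS H3K4me3 peaks at 24 h were all under 2 kb. H3K4me3 medians were 35.3 to 39.3 for 1 to 2 kb and 10.15 to 11.69 below that.

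**Figure D4:**
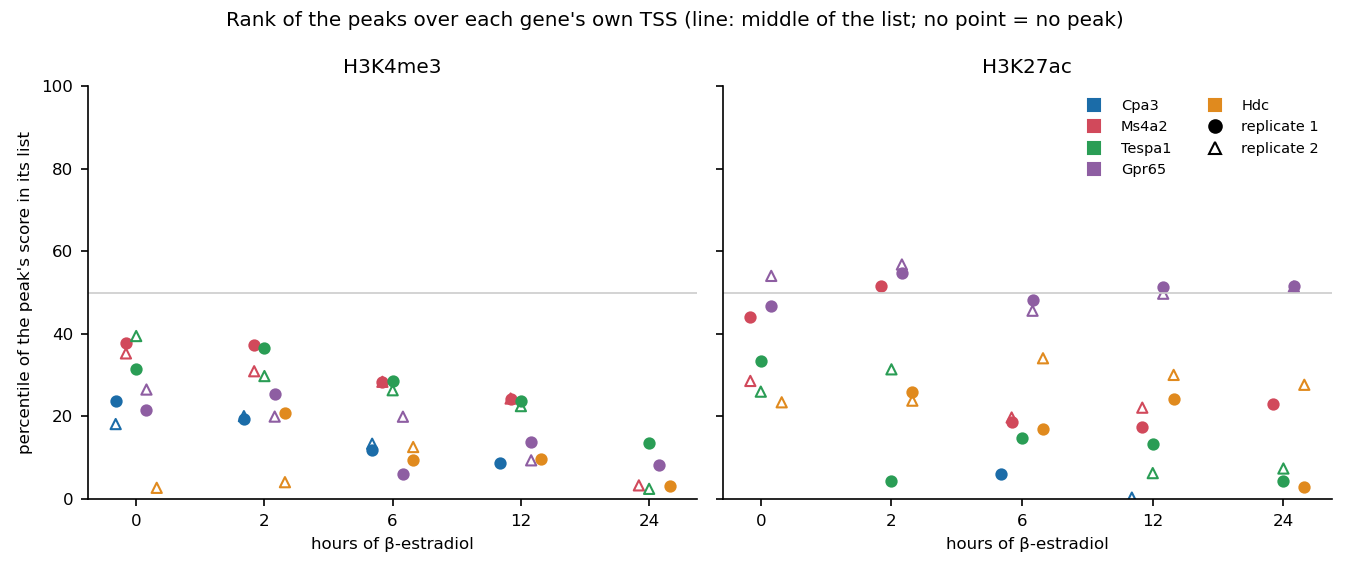
Percentile of each peak's score within its own list (y axis, 0 to 100) for peaks over the own TSS of 5 genes, against hours of β-estradiol (x axis), in the H3K4me3 (left) and H3K27ac lists (right); circles are replicate 1, triangles are replicate 2, and a missing point means no peak. All H3K4me3 points lie below 50, and the H3K27ac points of *Gpr65* lie between 45.6 and 56.8.

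The order in which the marks left could be compared at the 3 genes with both marks in both 0 h lists. A promoter peak within 2 kb of the TSS was last in both lists at 12 h for H3K4me3 and at 24 h for H3K27ac at *Gpr65*. It was last in both lists at 12 h for each mark at *Ms4a2*, and at 24 h for each mark at *Tespa1*. At *Hdc*, which lacked both marks in 1 list at 0 h, the last time with both lists was 6 h for H3K4me3 and 24 h for H3K27ac. At *Cpa3*, H3K4me3 was last in both lists at 6 h and H3K27ac was in both lists at no time. *Fcer1a* and *Tpsb2* had no promoter H3K4me3 in any list, and their H3K27ac was in neither list at 12 or 24 h. It was last in both lists at 2 h at *Fcer1a* and in both at no time at *Tpsb2*. So 2 genes (*Hdc* and *Gpr65*) had more H3K27ac than H3K4me3 lists with a promoter peak at 24 h and no member had the reverse, which leaves the order undetermined at most members. The same count was not made over all genes, so nothing particular to the members is read from it. Peaks of the marks were called separately, and their thresholds cannot be matched.

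CTCF, which was not used to choose the genes, had 24 sites at 9 of the 10 windows, with none at *Fcer1a*. Of these, 20 were listed at both times, 4 only at 24 h, and none only at 0 h. In all, 25.1% of 43987 CTCF regions were listed at 24 h only and 5.94% at 0 h only. The 24 h sites were a pair in *Hdc* (905 and 1417 bp, 22.2 and 19.8 kb from the TSS, the latter over an alternative start of the gene), 1 upstream of *Tespa1* (732 bp), and 1 in *Cma2* near *Cma1* (452 bp), at percentiles between 14.8 and 33.2. With 1 list per time there is no replicate check of these differences.

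Covered length over the whole window was fitted for all genes with limma on log2(covered bp + 200), with 13679 genes for H3K4me3 and 13938 for H3K27ac. Of the members, 7 passed the filter of a peak in at least 2 lists for H3K4me3 (all but *Fcer1a*, *Mcpt8*, and *Tpsb2*) and 9 for H3K27ac (all but *Mcpt8*). The H3K4me3 differences, 24 h minus 0 h with their SE, were -2.47 (0.34) for *Cpa3*, -2.99 (0.59) for *Ms4a2*, -1.05 (0.13) for *Gpr65*, and -0.78 (0.09) for *Tespa1*. They were -2.13 (0.70) for *Cma1*, -0.32 (1.09) for *Hdc*, and -0.04 (0.08) for *Fcer1g*. The H3K27ac differences were -2.21 (0.46) for *Cpa3*, -1.15 (0.19) for *Fcer1a*, -0.34 (0.17) for *Ms4a2*, -0.56 (0.30) for *Tespa1*, and -0.62 (0.45) for *Gpr65*. They were -1.62 (1.38) for *Tpsb2*, 0.38 (0.25) for *Hdc*, 0.06 (0.12) for *Fcer1g*, and 2.53 (1.45) for *Cma1*. Window values also hold peaks away from the member's own promoter. Mean H3K27ac at *Galc* went from 6818.5 to 3973.5 bp, beside 5282.0 to 3709.0 bp in the *Gpr65* TSS region. For *Fcer1a*, the region at *Olfr1404* went from 8362.5 to 3149.0 bp. The H3K4me3 peaks of the *Cma1* window lie at or next to an alternative start of *Cma2*. The H3K4me3 difference of *Hdc* turned to 0.95 without replicate 2 at 0 h and 0.63 without replicate 2 at 24 h, and it was -1.58 and -1.27 without replicate 1 at these times. The H3K4me3 difference of *Ms4a2* was -1.88 without replicate 1 at 24 h. Of the H3K27ac differences, that of *Cma1* was 0.35 and 4.72, that of *Tpsb2* -3.23 and 0, that of *Hdc* 0.05 and 0.71, and that of *Gpr65* -0.38 and -0.86, without replicate 1 and without replicate 2 at 0 h. That of *Ms4a2* was -0.57 and -0.12 without replicates 1 and 2 at 24 h, and that of *Hdc* was 0.23 without replicate 1 at 24 h. Without single lists at 0 or 24 h those of *Fcer1g* changed sign, between -0.09 and 0.005 for H3K4me3 and between -0.07 and 0.19 for H3K27ac. The median of all genes was -0.03 for H3K4me3 and 0.05 for H3K27ac. With only those higher-scoring peaks the H3K27ac difference turned to 4.06 at *Fcer1a* and 2.46 at *Gpr65* and was 3.71 at *Hdc* and -3.21 at *Ms4a2*, and the H3K4me3 differences of *Cpa3*, *Ms4a2*, and *Tespa1* became 0, since their peaks lie under that score.

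A list of 51 other mast cell genes was counted in the same fits, at a Benjamini-Hochberg adjusted p under 0.05. It was chosen with earlier results of these data known, and some of its windows hold the same peaks as members' windows. The H3K4me3 peaks of *Cma2* are those of the *Cma1* window, and the H3K27ac peaks of *Tpsg1* are those of *Tpsb2*. The counts and shares are therefore not independent of the members. For H3K4me3, 35 were tested, none was longer and 2 were shorter at 24 h (background 0.431% longer and 0.673% shorter of all genes). The median difference of the tested genes was -0.10. An unadjusted limma p under 0.05 was found for 12 (34.3%), beside 11.5% of all genes, and all of these but *Csf2rb* were shorter. For H3K27ac, 39 were tested, none was longer and 3 were shorter (background 3.44% longer and 1.89% shorter), and the median was 0.11. An unadjusted limma p under 0.05 was found for 12 (30.8%), beside 21% of all genes, and these went in both directions. Windows of *Plcg1*, *Grb2*, *Vav1*, *Inpp5d*, *Kit*, and *Spi1* were longer, and the others of the 12 were shorter. By class, the shortened windows were those of 3 granule proteases (*Tpsab1* for H3K4me3, *Prss34* and *Gzmb* for H3K27ac), 1 surface receptor (*Il1rl1* for H3K4me3), and 1 transcription factor (*Gata2* for H3K27ac). Each was called for 1 mark only. H3K27ac at *Il1rl1* went the other way (2.91, SE 1.61), and H3K4me3 at *Prss34* differed by -0.01 (SE 0.125). H3K27ac at *Tpsab1* differed by -2.90 (SE 1.51), and *Gzmb* had no H3K4me3 peak at 0 or 24 h. No window of an IgE receptor signalling gene (11 tested for each mark) or of a lipid mediator gene (4 tested for each) was called. Some of these windows hold only peaks of neighbours. H3K4me3 in the *Lat2* window lay at the start of *Rfc2*, and in the *Btk* window at starts of *Timm8a1*, *Rpl36a*, *Gla*, and *Hnrnph2*.

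*Tpsab1*, the tryptase gene next to *Tpsb2*, carried H3K4me3 over its own TSS at 1401 and 1771 bp at 0 h, 2825 and 2500 bp after 6 h, and 1844 and 1439 bp at 12 h, and in neither list at 24 h (window difference -3.34, SE 0.30, limma adjusted p = 0.00272). That region lies just outside the *Tpsb2* window, in which H3K4me3 was never called. *Il1rl1*, the receptor for interleukin-33, had H3K4me3 lengths of 6255 and 6217 bp at 0 h and 3847 and 3740 bp at 24 h (difference -0.69, SE 0.10, limma adjusted p = 0.0177). *Prss34*, a mast cell and basophil protease gene, had window H3K27ac of 10200 and 10490 bp at 0 h and 5288 and 4977 bp at 24 h (-0.98, SE 0.11, limma adjusted p = 0.00696). *Gzmb*, granzyme B, had 3197 and 1794 bp at 0 h and 0 and 418 bp at 24 h (-2.89, SE 0.55, limma adjusted p = 0.0343). No H3K27ac region of the *Prss34* or *Gzmb* window held the gene's own TSS. All were intergenic, from 15.6 kb upstream to 4.75 kb downstream of the *Prss34* TSS, and 3.83 and 16.3 kb upstream of that of *Gzmb*. The *Il1rl1* call was lost without either list at 0 h or at 24 h (limma adjusted p from 0.0756 to 0.098), and the *Gzmb* call without each list at 0, 2, or 6 h or replicate 1 at 24 h (from 0.0566 to 0.143).

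Of the regulators of this program, *Gata2* had no H3K4me3 peak in its window in any list, and its window H3K27ac, from 1 region 28.4 kb downstream of the TSS that holds the start of another gene (*1700031F10Rik*) and reaches past the window, was 1000 and 862 bp at 0 h and absent from both lists at 24 h (-2.50, SE 0.24, limma adjusted p = 0.00432). *Kit*, the stem cell factor receptor, had H3K4me3 peaks of 8839 and 8827 bp at 0 h and 8667 and 8514 bp at 24 h, close to the longest length in these lists, and none in replicate 1 at 2 h or replicate 2 at 12 h (difference -0.04, SE 1.93). Its window H3K27ac was 5352 and 5634 bp at 0 h and 15550 and 8478 bp at 24 h (1.04, SE 0.24, limma adjusted p = 0.0589), and it passed without replicate 1 at 24 h (limma adjusted p = 0.0237) or replicate 2 at 24 h (limma adjusted p = 0.00098), and the range over all alternatives was 0.00098 to 0.224. *Mitf* had no peak of either mark in its window. Long peaks scored low in these lists, and whether wide domains at *Gata2*, *Kit*, or *Tal1* were missed in calling cannot be settled from them.

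**Figure D5:**
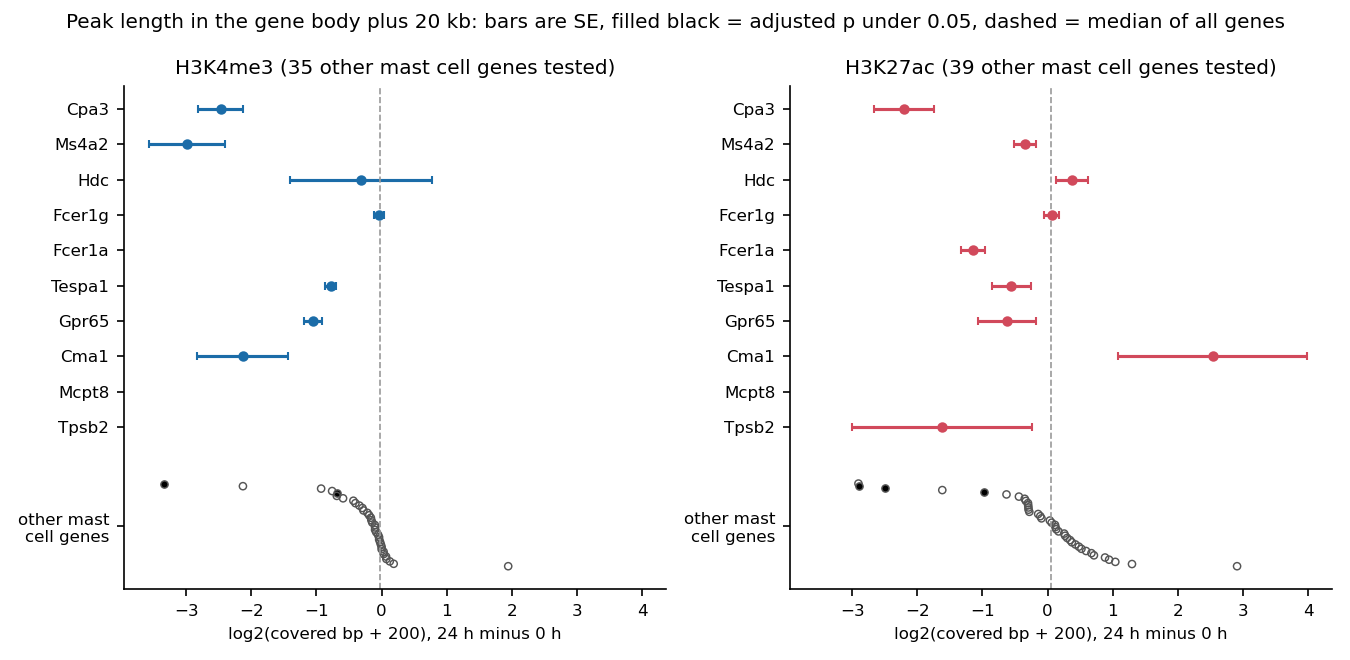
Difference in log2(covered bp + 200) between 24 h and 0 h over the gene body plus 20 kb (x axis) for the members (coloured points with SE bars from limma) and for 51 other mast cell genes, of which 35 (H3K4me3, left) and 39 (H3K27ac, right) were tested and are drawn as circles, filled black where the adjusted p was under 0.05. The dashed line is the median of all genes; members without a point did not pass the filter, and *Cpa3* lies at -2.47 for H3K4me3 and -2.21 for H3K27ac.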

How the data were processed

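ChIP-seq peak lists of 22 libraries from G1ER cells were used. The authors aligned the histone reads to mm10 with Bowtie2, kept uniquely mapped reads, and called peaks per library with MACS with its model step off. How the CTCF lists were made, the MACS version, and any control library are not given in the sources used here. The deposited score of each peak, the authors' value from the caller, starts at 50 and rises as the p-value falls, and it was used only as a percentile within a list or as a filter. Read depth, and thus the precision of a call, is unknown.

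Peaks overlapping by at least 1 bp, or touching, were merged over the 10 lists of a mark into regions and placed by all TSSs of GENCODE M21 (GRCm38), and promoter counts used 1 TSS per gene. Window lengths (gene body plus 20 kb, pseudocount 200 bp, a peak in at least 2 lists) were fitted for all protein-coding genes with limma 3.58.1 (eBayes with trend, a mean per time point, all 10 lists) in R 4.3.3, tested on simulated data first. Members and lists were chosen with earlier results of these data known. Named genes were all members, the other mast cell genes called in a fit, and *Kit*, *Gata2*, and *Mitf*. Alternatives were higher-scoring peaks, equal peak numbers, other windows, pseudocounts, and filters, 4 lists, a replicate block, and leaving out each list. Some genes are not reported here. Python 3.11.15, numpy 2.4.6, scipy 1.17.1, and matplotlib 3.10.9 were used.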

Additional observations from a re-analysis of the deposited data

How the results depend on the processing

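The number of members that lost promoter H3K4me3 (1) was 0 with peaks scoring no less than the median over all lists of the mark (higher-scoring peaks), 2 with a window of 1 kb or with at least 500 bp covered, 3 when 1 list without a peak sufficed, and between 1 and 2 without each list at 0 or 24 h (2 without replicate 1 or replicate 2 at 24 h). For H3K27ac (0) it was 1 when 1 list sufficed and between 0 and 2 without each list (2 without replicate 1 at 0 h, 1 without replicate 1 at 24 h). The members shorter at the promoter numbered 0 for both marks with higher-scoring peaks, 4 to 5 (H3K4me3) and 3 to 5 (H3K27ac, 5 without replicate 1 at 0 h) without each list, alternatives chosen after seeing the data. The number with more H3K27ac than H3K4me3 lists at 24 h (2) was 1 with higher-scoring peaks and 1 to 3 without each list, also added afterwards (1 without H3K4me3 replicate 2).

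Of all genes, H3K4me3 windows called (151, 59 longer and 92 shorter) numbered 27 in a window of 2 kb around the TSS and 64 to 211 without each list (64 and 72 without replicates 1 and 2 at 0 h, 93 and 98 without replicates 1 and 2 at 24 h). The split was 84 longer and 59 shorter at equal peak numbers and 9 and 125 with higher-scoring peaks. H3K27ac windows called (742, 479 longer and 263 shorter) numbered 280 with higher-scoring peaks (129 longer, 151 shorter), 149 in the 2 kb window, 477 with 5 kb flanks, 347 (167 longer, 180 shorter) with the 4 lists at 0 and 24 h, and 300 to 687 without each list (300 and 351 without replicates 1 and 2 at 0 h, 403 without replicate 1 at 24 h). Other mast cell genes called were 0 with higher-scoring peaks, 1 (H3K4me3) and 0 (H3K27ac) in the 2 kb window, and 1 to 3 (H3K4me3; 1 without replicate 2 at 0 h or either list at 24 h) and 2 to 5 (H3K27ac; 5 without replicate 2 at 24 h) without each list. The lone list of a time point was then assumed to vary like the others. At equal peak numbers the *Kit* H3K4me3 difference turned to 2.71 and the *Gata2* H3K27ac call was lost (limma adjusted p = 0.394), and with higher-scoring peaks the *Prss34* call was (limma adjusted p = 0.11). Over all alternatives the limma adjusted p ranged from 0.000831 to 0.394 for *Gata2*, 0.00135 to 0.11 for *Prss34*, 0.00977 to 0.098 for *Il1rl1*, and 0.0141 to 0.143 for *Gzmb*. Differences of genes without a peak at 24 h depend on the pseudocount, as for *Tpsab1* (-5.23 to -1.51). The *Tpsab1* call held in all alternatives that tested it (limma adjusted p from 0.00039 to 0.0353). Of 320 alternative values for the members' window differences, 9 had another sign, at *Hdc*, *Fcer1g*, *Fcer1a*, and *Gpr65*. The 320 include H3K4me3 at *Fcer1a*, *Mcpt8*, and *Tpsb2* and H3K27ac at *Mcpt8*, which were 0 in every setting and could not change sign. A difference that became 0, as at *Cpa3*, was not counted as another sign. The causes of these shifts were not tested.

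Same-numbered lists did not deviate together (r between -0.12 and 0.13 for H3K4me3, -0.08 and 0.05 for H3K27ac), so the numbers were not taken as pairs. With the replicate block 103 H3K4me3 and 523 H3K27ac windows were called, and 2 other mast cell genes for each mark (*Gzmb* lost, limma adjusted p = 0.0593).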
